A study of Mus musculus with 16 samples.

Results

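The comparison described here set H295R tumours of SCID mice given 9-cis retinoic acid (9-cisRA) against those of mice given corn oil (control). Its members are the 4 arrays labelled 9-cisRA and the 4 labelled control, 8 of the 16 arrays of the study, chosen by their labels alone. H295R is an established human adrenocortical carcinoma line that makes steroid hormones, and SCID mice lack functional T and B cells, so the tumours grew without an adaptive immune response. All mice carried the same line and were treated by mouth for 28 days, and the other 8 arrays were of mitotane, an adrenal-toxic drug, given alone or together with 9-cisRA. The design text counts 43 mice in 4 groups, which are more animals than arrays. The labels do not say that the arrays come from separate mice, so each p-value reflects array-to-array spread that may be technical in part.

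9-cis retinoic acid is a vitamin A derivative that binds both families of nuclear retinoid receptors, RAR and RXR. RXR pairs with RAR and with many other nuclear receptors, among them those for oxysterols (LXR), fatty acids (PPAR), vitamin D and thyroid hormone, and the pairs sit on DNA and change transcription when a ligand binds. Cells keep retinoic acid in balance by making it from retinol through alcohol and aldehyde dehydrogenases, binding it with CRABP proteins and breaking it down with CYP26 enzymes. RARB, CYP26A1 and CRABP2 are textbook genes that retinoic acid induces in many cells.

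RNA was read on a 1-colour human Agilent array, and the values are the deposited log2 values, in which 0 is the median of a probe over the 16 arrays. The organism field names the mouse, while the line and the array are human. Each of 4 slides held 1 array of each group, and the replicate number is the slide. Across the 8 arrays 61.7% to 75.9% of the probes were well above background. Control replicate 4 stood apart from the rest. Its 75th percentile of signal was 224.2, against 551.5 to 1048 on the other 7 arrays, its median correlation with them was 0.871 against 0.985 to 0.991, and its column had a median of -0.35 against -0.03 to 0.01. Relative to the mean of the other controls it was at least 2.0-fold higher for 22.2% of the tested transcripts and at least 2.0-fold lower for 14.4%. Differences of the named transcripts are therefore given with all 8 arrays and again without this array. The 9-cisRA arrays all lay at position 4 of their slide and no control did, so position and treatment cannot be told apart.

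The files identify transcripts by accession only. Gene symbols were assigned by hand from knowledge of human RefSeq accessions and not from a table, and each accession stands beside its symbol so that the name can be checked. Of the 19673 transcripts tested, 578 were named in this way, or 2.94%.

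No transcript passed an adjusted p of 0.05 in limma, either with all arrays (0.0% called in either direction) or without control replicate 4 (0.0%). The smallest adjusted p was 0.719 with all arrays and 0.971 without control replicate 4, so no adjusted p of a named transcript was below these. At an unadjusted p under 0.05 there were 843 transcripts with all arrays, 4.29% of those tested, of which 557 (2.83%) were higher and 286 (1.45%) lower in the 9-cisRA tumours. With columns centred on their medians the same count was 391 higher and 489 lower, and with the value table quantile normalised 424 higher and 487 lower, so the direction of the excess turned with the scaling. When control replicate 4 was left out, 418 (2.12%) were higher and 449 (2.28%) lower, 4.41% in all. Counts of list members given below are to be read beside these shares. The values of both groups did not overlap for 2.51% of the transcripts with all arrays (1.79% higher, 0.722% lower) and for 7.04% without control replicate 4 (3.82% higher, 3.21% lower). In the same direction in both fits were 335 transcripts, 39.7% of the former set and 38.6% of the latter. A fit that weights arrays by their spread gave control replicate 4 a weight of 0.036 and passed 3 transcripts. These were GH2 (NM_022557), a placental growth hormone, with a higher value, and ENST00000264899 and ENST00000452153, both unnamed here, with lower values. All differences below are therefore values that did not pass the adjusted test. Their size also depends on the background correction. This was examined for 100 of the named transcripts with normexp correction (offset 50) and quantile normalisation of the scanner signals. Of these, 45 had a difference smaller by more than 1.5 times and 0 a larger one by that factor. The median ratio to the values given here was 0.70.

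The retinoid lists held 84 different genes, of which 56 were tested. At an unadjusted p under 0.05 there were 5 higher and 2 lower with all arrays, and 2 higher and 4 lower without control replicate 4. Over all transcripts tested, 2.83% were higher and 1.45% lower at that threshold with all arrays, and 2.12% and 2.28% without control replicate 4. No member passed the adjusted test in either limma fit. The receptors that bind retinoic acids are described first. Of 6 receptor genes, 5 were tested and RXRG was not well above background. RARB (NM_000965), the retinoic acid receptor beta gene, had values of 0.48, 0.37, 0.38 and 0.69 on the control arrays and -0.90, -0.12, -0.27 and 0.08 on the 9-cisRA arrays. The groups did not overlap, and RARB was lower on all 4 slides. Its mean difference was -0.78 ± 0.23 (log2, SE; unadjusted p = 0.0035), and -0.71 ± 0.24 without control replicate 4 (unadjusted p = 0.0090), or 1.72-fold and 1.64-fold lower. The size did not hold under every choice, with -0.31 by the brightest probe of the identifier (unadjusted p = 0.26) and -0.08 after normexp correction and quantile normalisation (unadjusted p = 0.25). A probe of the identifier was well above background on 3 of 4 control arrays and on 4 of 4 9-cisRA arrays, while the values are averages over its probes. The averaged level was -5.27 on the controls and -6.08 on the 9-cisRA arrays (log2, relative to the array's 75th percentile). On the 9-cisRA arrays the lowest signals counted as well above background were -6.27 to -5.84. RARG (NM_000966) was higher on 4 of 4 slides, by 0.35 ± 0.15 with all arrays, and by 0.20 ± 0.11 without control replicate 4 (unadjusted p = 0.037 and 0.093). RARA (NM_001024809) differed by -0.24 ± 0.18 and, without control replicate 4, by -0.06 ± 0.13. RXRA (NM_002957), the most widely used RXR partner, differed by 0.25 ± 0.18 and then 0.06 ± 0.12. RXRB (NM_021976) took its sign from control replicate 4, where its value was 2.21 against -0.55 to 0.12 on the other controls, and differed by -0.36 ± 0.42 with it and 0.24 ± 0.19 without it.

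Genes that bind and break down retinoic acid differed in both directions. Of 9 such genes 7 were tested, and none reached an unadjusted p of 0.05 in either fit. This does not show that they were unchanged. CYP26A1 (NM_057157), the main retinoic acid hydroxylase and a classical induced gene, had values of 0.03, -0.13, -0.17 and -0.42 on the control arrays and 0.39, -0.32, -0.03 and -0.15 on the 9-cisRA arrays. The ranges overlapped, with a difference of 0.14 ± 0.18, or 0.06 ± 0.17 without control replicate 4. CYP26B1 (NM_019885), well above background on 3 of 4 controls and 4 of 4 9-cisRA arrays, differed by 0.21 ± 0.25 and then -0.03 ± 0.21. CRABP2 (NM_001878), which carries retinoic acid to RAR, differed by 0.22 ± 0.21 and then 0.08 ± 0.20. CRABP1 (NM_004378) differed by -0.23 ± 0.33 and then 0.02 ± 0.31, with values from -0.71 to 0.74 on the 9-cisRA arrays. FABP5 (NM_001444) differed by -0.48 ± 0.27 and then -0.21 ± 0.23, and CYP2C8 (NM_000770) by -0.41 ± 0.36 and then -0.11 ± 0.33. CYP2S1 (NM_030622), well above background on 3 of 4 controls, differed by -0.09 ± 0.37 and then 0.35 ± 0.25.

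The genes that make, store and carry retinoids held the widest differences among the retinoid lists. Of 32 genes listed, 18 were tested, with 2 higher and 1 lower at an unadjusted p under 0.05 in either fit. Over all transcripts 2.83% were higher and 1.45% lower with all arrays, and 2.12% and 2.28% without control replicate 4. ADH1A (NM_000667), a class I alcohol dehydrogenase able to oxidise retinol, had values of -1.26, -0.87, -0.84 and -0.27 on the control arrays and 0.95, 2.63, -0.05 and 0.60 on the 9-cisRA arrays. ADH1C (NM_000669), its close paralogue, had -0.92, -0.90, -0.90 and -0.54 against 0.98, 2.21, 0.40 and 0.32. All 9-cisRA arrays exceeded all controls for both genes, and 9-cisRA replicate 2 was the highest for both. ADH1A was 3.58-fold higher (1.84 ± 0.55, unadjusted p = 0.0041), and 4.06-fold higher without control replicate 4 (2.02 ± 0.59, unadjusted p = 0.0039). ADH1C was 3.46-fold higher (1.79 ± 0.52, unadjusted p = 0.0034), and 3.68-fold higher without control replicate 4 (1.88 ± 0.57, unadjusted p = 0.0049). Without 9-cisRA replicate 2 the differences were 1.31 for ADH1A and 1.38 for ADH1C, and after normexp correction and quantile normalisation they were 0.60 and 1.5. The ADH1A probe was well above background on 3 of 4 controls and on 4 of 4 9-cisRA arrays, so this transcript was tested through the group in which it is high. The class I ADH genes are near-identical in sequence, so their probes may share signal. ADH1B of the same cluster was not well above background.

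The summed signal of the fibroblast markers was also higher on the 9-cisRA arrays, while single markers differed from each other. Of 9 fibroblast or pericyte markers 6 were tested, 5 of them with a positive difference. At an unadjusted p under 0.05, 2 were higher with all arrays and 1 without control replicate 4. Of all transcripts 55.9% had a positive difference and 2.83% were higher at that threshold (54.3% and 2.12% without control replicate 4). The summed signal of the fibroblast or pericyte markers was 28.3 to 32.4 times the array's 75th percentile on the control arrays. On the 9-cisRA arrays it was 41.0 to 130.6 times, highest on 9-cisRA replicate 2. COL1A1, COL1A2 and DCN made up most of it. COL1A1 (NM_000088), a chain of type I collagen, had -0.51, -0.67, -0.91 and -0.71 on the controls and 0.30, 1.70, -0.30 and 0.34 on the 9-cisRA arrays. COL1A2 (NM_000089), the other chain, differed by 1.31 ± 0.54 and PDGFRA (NM_006206), a receptor of mesenchymal cells, by 1.43 ± 0.49 (1.24 ± 0.60 and 1.43 ± 0.54 without control replicate 4). DCN (NM_001920), a collagen-binding proteoglycan, was at 0.95, 1.79, 0.27 and -0.22 on the 9-cisRA arrays and between -0.20 and -0.04 on the controls. The pericyte markers overlapped between the groups. PDGFRB (NM_002609), a receptor of pericytes, differed by -0.08 ± 0.33 and then -0.40 ± 0.28, and ACTA2 (NM_001613), smooth muscle actin, by 0.13 ± 0.44 and then 0.48 ± 0.42. The defining markers COL3A1 and LUM were not well above background. The part of these markers in the ADH values was not tested, nor how far mouse RNA of the host binds these human probes. In a bulk tumour sample, a change in the number of cells of a type and a change in RNA per cell cannot be told apart.

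**Figure D1:**
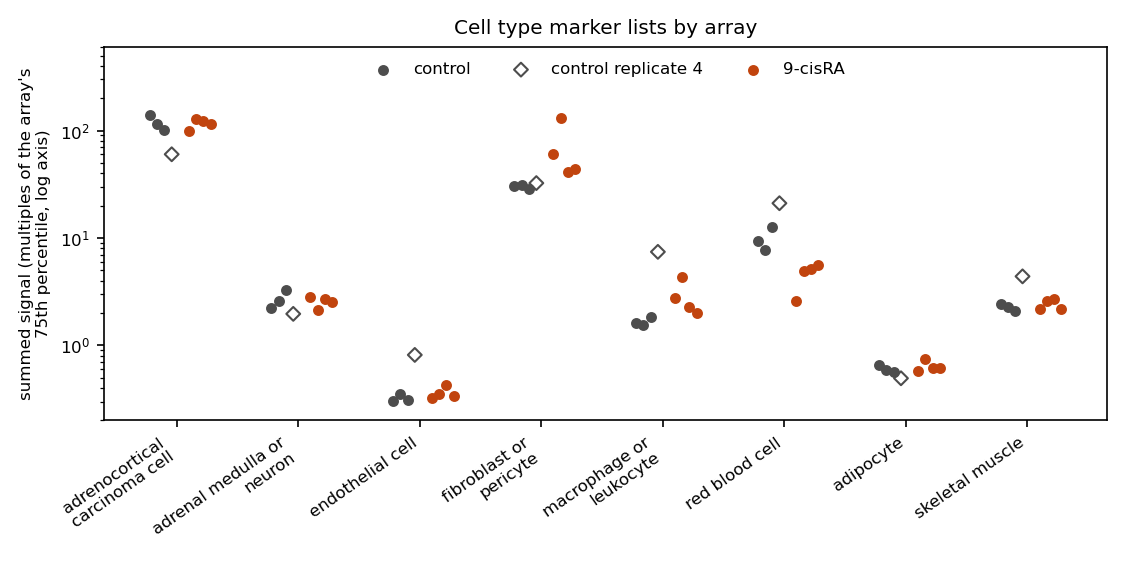
Summed signal of 8 cell type marker lists on each array, in multiples of the array's 75th percentile on a log axis, for control arrays (grey, open diamond for control replicate 4) and 9-cisRA arrays (orange). The fibroblast or pericyte sums ran from 28.3 to 32.4 on controls and from 41.0 to 130.6 on 9-cisRA arrays, and the red blood cell sums lay lower on the 9-cisRA arrays.

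BCO2 (NM_031938), a carotenoid-cleaving oxygenase, was lower on all 4 slides. Its values were 0.90, 0.21, 0.18 and -0.25 on the control arrays and -0.46, -0.52, -0.30 and -0.38 on the 9-cisRA arrays, a narrow range under every control. The difference was -0.68 ± 0.21 (unadjusted p = 0.0059), and -0.85 ± 0.19 without control replicate 4 (unadjusted p = 0.00049), 1.60-fold and 1.80-fold lower. ALDH1A1 (NM_000689), a retinaldehyde dehydrogenase, differed by 0.28 ± 0.21 and then 0.12 ± 0.19. The dehydrogenases ALDH1A2 and ALDH1A3, the storage enzyme LRAT and the reductase DHRS3 were among the 13 listed genes whose probes were not well above background.

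**Figure D2:**
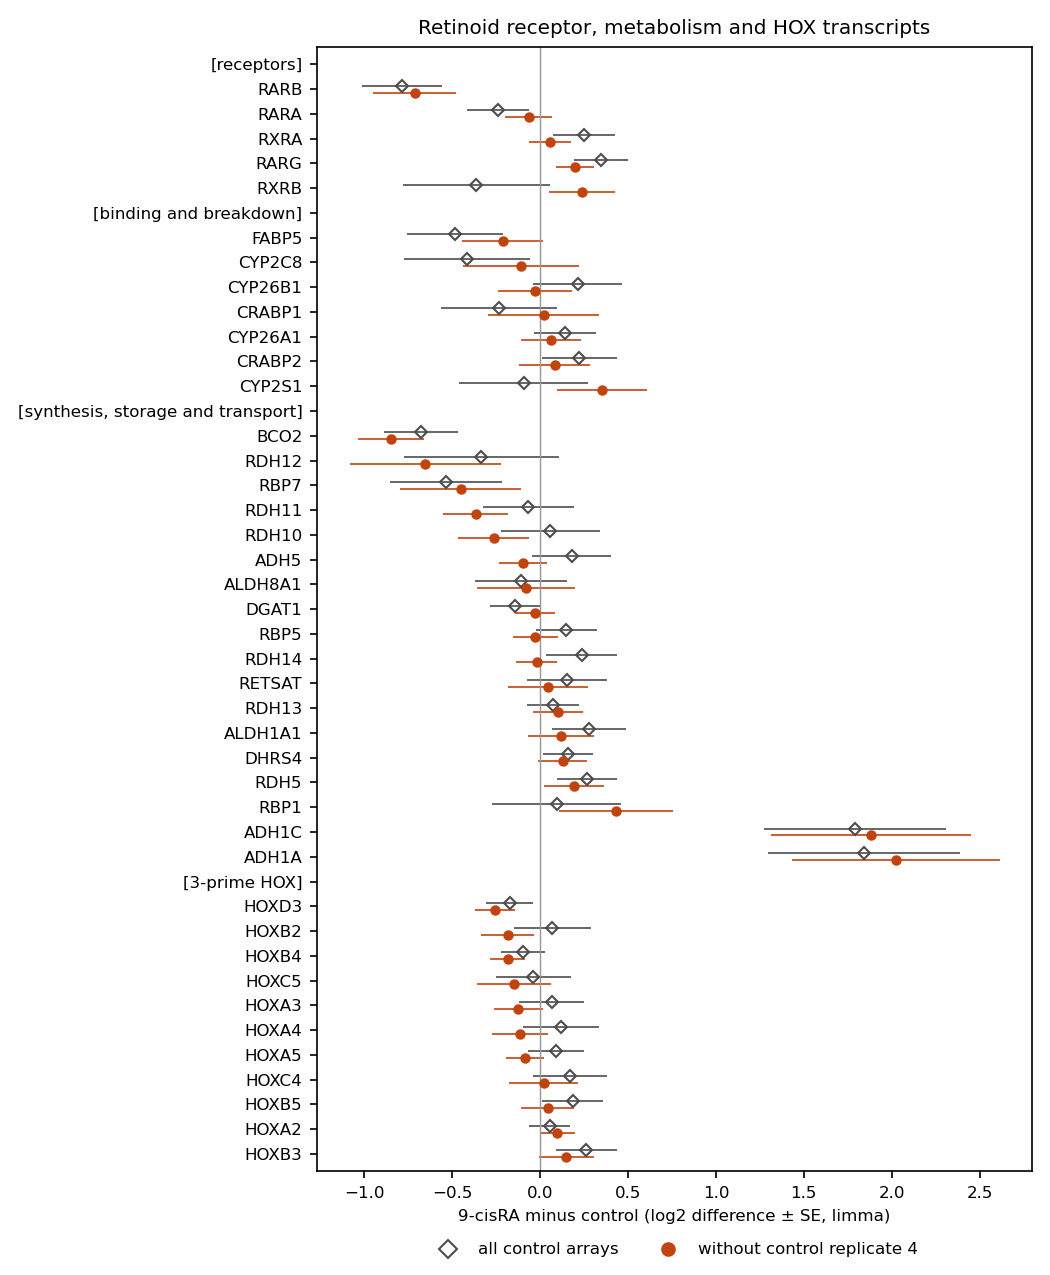
Difference between 9-cisRA and control (log2, bars are limma standard errors) for the tested receptor, binding, breakdown, synthesis and 3-prime HOX transcripts, with all control arrays (open diamonds) and without control replicate 4 (filled circles). ADH1A and ADH1C lie at 1.79 to 2.02, BCO2 and RARB lie below 0 in both fits, and RXRB changes side.

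Among genes that retinoic acid is known to induce, 20 of 30 were tested, and their median difference was 0.10, or 0.02 without control replicate 4. The same medians over all transcripts were 0.05 and 0.02. HIC1 (NM_006497), a transcriptional repressor, had -0.78, -0.30, -0.56 and -0.41 on the controls and 0.19, 0.94, 0.09 and 0.13 on the 9-cisRA arrays, with no overlap. It was 1.80-fold higher (0.85 ± 0.39, unadjusted p = 0.047), and 1.84-fold without control replicate 4 (0.88 ± 0.43, unadjusted p = 0.059). Its highest value was again on 9-cisRA replicate 2, the array with the highest fibroblast marker sum, and the difference without that array was 0.65. The part of the fibroblast markers in the HIC1 values was not tested. MEIS1 (NM_002398), a HOX cofactor, differed by 0.30 ± 0.17 and then 0.18 ± 0.15. TGM2 (NM_004613), tissue transglutaminase, differed by 0.46 ± 0.25 and then 0.16 ± 0.17. Its probe was well above background on 3 of 4 controls and on 4 of 4 9-cisRA arrays, the group in which it is higher. With RARB lower and CYP26A1 and CRABP2 within the spread, the list held members on both sides of 0, 10 above and 10 below without control replicate 4.

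The HOX genes at the 3-prime ends of their clusters, which respond to retinoic acid in embryonic cells, differed little. Of 15 genes 11 were tested. Of all transcripts 4.29% reached an unadjusted p under 0.05 with all arrays and 4.41% without control replicate 4. Of the tested HOX genes none did with all arrays and 1 without control replicate 4. That gene was HOXD3 (NM_006898), with 0.24, 0.02, 0.22 and -0.18 on the controls and -0.13, 0.01, -0.15 and -0.12 on the 9-cisRA arrays, a difference of -0.17 ± 0.13 and then -0.26 ± 0.11 (unadjusted p = 0.040). HOXB4 (NM_024015) differed by -0.10 ± 0.12 and then -0.18 ± 0.10, and HOXB3 (NM_002146) by 0.26 ± 0.17 and then 0.15 ± 0.16. The HOXB3 probe was well above background on 3 of 4 controls and on 4 of 4 9-cisRA arrays. The median of the list was 0.07 with all arrays and -0.11 without control replicate 4, so its sign rests on that array.

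Partners of RXR and their targets were examined next. Of 13 partner receptors 9 were tested, with 0 higher and 2 lower at an unadjusted p under 0.05. These 2 were the orphan receptors NR4A1 and NR4A2, described below with the immediate early genes. At that threshold 1.45% of all transcripts were lower with all arrays, and 2.28% without control replicate 4. NR1H3 (NM_005693), which encodes LXR alpha, differed by 0.14 ± 0.13 and then 0.05 ± 0.11, and PPARA (NM_005036) by 0.24 ± 0.20 and then 0.04 ± 0.16. Of 17 LXR and RXR lipid targets 13 were tested, 10 with a positive difference, or 9 without control replicate 4. Over all transcripts 55.9% and 54.3% had a positive difference. The median of the list was 0.20 with all arrays and 0.07 without control replicate 4, and 0 and then 1 were higher at an unadjusted p under 0.05. The cholesterol exporters ABCA1 (NM_005502) and ABCG1 (NM_207627) differed by 0.33 ± 0.16 and 0.47 ± 0.23, and without control replicate 4 by 0.27 ± 0.16 and 0.37 ± 0.23, each higher on 4 of 4 slides. PLTP (NM_006227), a phospholipid transfer protein of plasma, had -0.87, -0.60, -0.37 and 0.48 on the controls and 0.67, 1.07, -0.01 and -0.12 on the 9-cisRA arrays. It was 1.67-fold higher with overlap (0.74 ± 0.36, unadjusted p = 0.058), and 2.02-fold higher with no overlap without control replicate 4 (1.02 ± 0.35, unadjusted p = 0.011). None of 17 tested PPAR and RXR fatty acid targets, of 5 vitamin D and RXR targets or of 10 receptor coregulators reached an unadjusted p of 0.05 in either fit.

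**Figure D3:**
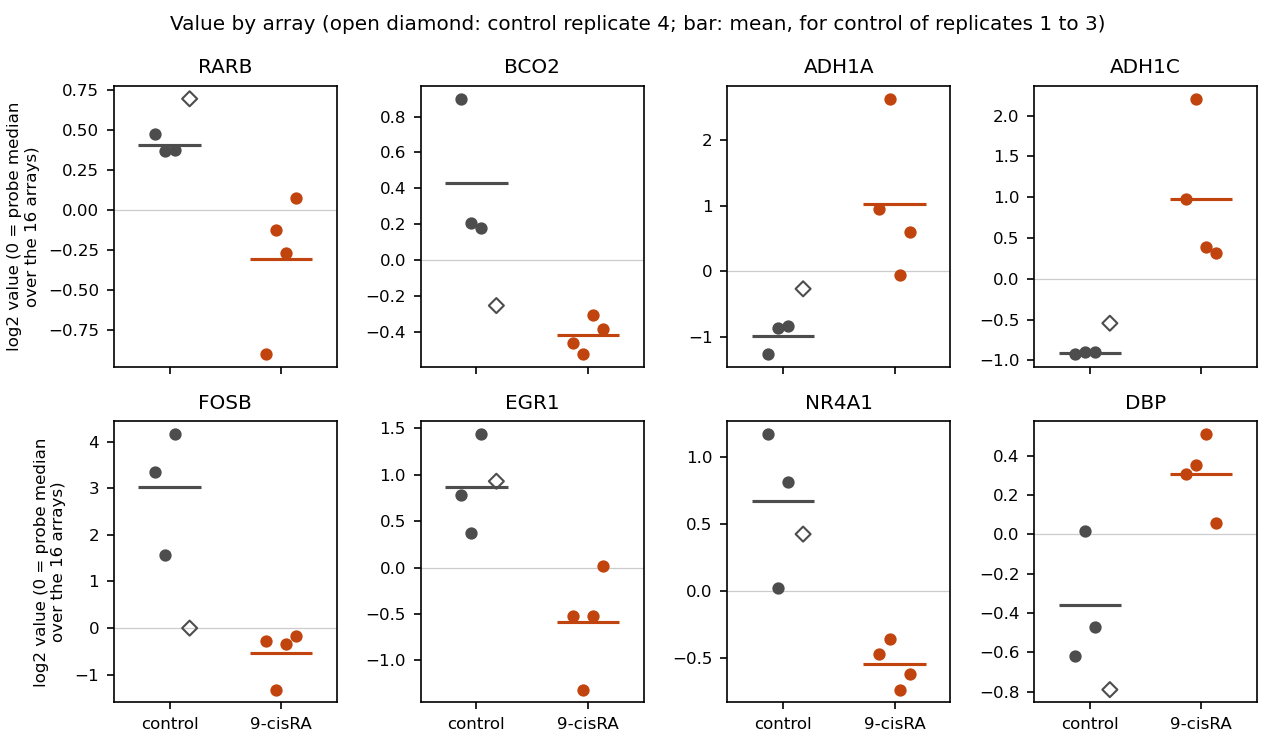
Log2 value on each array (0 is the probe's median over the 16 arrays) for 8 transcripts, with control arrays in grey (open diamond for control replicate 4) and 9-cisRA arrays in orange; bars are means, for control over replicates 1 to 3. The groups do not overlap for any of the 8, which were picked with these values known. Over all transcripts this held for 2.51%. The array of 9-cisRA replicate 2 is highest for ADH1A and ADH1C and lowest for FOSB and EGR1.

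The immediate early genes, which cells switch on within minutes of growth factor or stress signals, held the lowest median of the 29 pathway lists in both fits. Of 20 tested members 19 had a negative difference with all arrays and 18 without control replicate 4, while over all transcripts 44.1% and 45.7% did. At an unadjusted p under 0.05 there were 9 lower and 0 higher, and 10 lower and 0 higher without control replicate 4. Over all transcripts 1.45% and 2.28% were lower at that threshold. The median difference was -0.66, and -0.59 without control replicate 4. The control arrays did not overlap the 9-cisRA arrays for 5 members (0.722% of all transcripts were lower in this way), and for 11 without control replicate 4 (3.21% of all transcripts).

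FOSB (NM_006732), a subunit of the AP-1 transcription factor, had the widest difference. Its values were 3.36, 1.58, 4.17 and 0.00 on the control arrays and -0.29, -1.33, -0.34 and -0.17 on the 9-cisRA arrays. Control replicate 4 lay close to the 9-cisRA arrays and the other 3 controls far above them. FOSB was 6.99-fold lower (-2.81 ± 0.77, unadjusted p = 0.0023), and 11.8-fold lower without control replicate 4 (-3.57 ± 0.67, unadjusted p = 9.6e-05). After normexp correction and quantile normalisation its difference was -1.81. FOS (NM_005252), which encodes its relative c-Fos, had 1.73, 0.06, 1.85 and 0.27 on the controls and -0.70, -0.80, -0.06 and -0.18 on the 9-cisRA arrays, and was 2.66-fold lower (-1.41 ± 0.55) or 3.13-fold lower without control replicate 4 (-1.65 ± 0.58). FOSL2 (NM_005253) differed by -0.84 ± 0.34 and then -1.08 ± 0.33. JUN (NM_002228), a partner of the FOS proteins, differed by -0.23 ± 0.31 and then -0.57 ± 0.24, and JUNB (NM_002229) by -0.26 ± 0.23 and then -0.25 ± 0.24.

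EGR1 (NM_001964), a zinc finger factor induced by growth signals, was lower on all 4 slides. Its values were 0.78, 0.38, 1.44 and 0.93 on the controls and -0.52, -1.31, -0.52 and 0.02 on the 9-cisRA arrays. The difference barely moved with control replicate 4, at -1.47 ± 0.47 with it (unadjusted p = 0.0069) and -1.45 ± 0.52 without it (unadjusted p = 0.014), a 2.76-fold and a 2.73-fold lower level. EGR2 (NM_000399) ranged more widely, from -0.59 to 2.53 on the controls and from -2.25 to 0.07 on the 9-cisRA arrays, with a difference of -1.51 ± 0.72 and then -2.01 ± 0.72.

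The NR4A receptors, which in adrenocortical cells respond to ACTH and angiotensin II and act on steroidogenic genes, were lower together. NR4A1 (NM_002135) had 1.17, 0.02, 0.82 and 0.42 on the controls and -0.47, -0.36, -0.74 and -0.62 on the 9-cisRA arrays, with no overlap and a difference of -1.15 ± 0.36 (unadjusted p = 0.0060), or -1.21 ± 0.39 without control replicate 4 (unadjusted p = 0.0079). NR4A2 (NM_006186) differed by -1.13 ± 0.42 and then -1.47 ± 0.40, and NR4A3 (NM_173200) by -1.06 ± 0.39 and then -1.45 ± 0.33 (unadjusted p = 0.00057). For these 2 genes control replicate 4 lay within the 9-cisRA range and the other 3 controls above it.

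ATF3, a stress-induced factor, was read by 2 transcripts that gave unlike sizes. NM_001040619 differed by -1.60 ± 0.45 and then -1.16 ± 0.40, and NM_001674 by -0.93 ± 0.38 and then -0.60 ± 0.36, with the highest control value on replicate 4 for both. SRF (NM_003131), the factor that binds the promoters of many immediate early genes, had 0.26, 0.28, 0.37 and 1.95 on the controls and -0.15, -0.14, -0.22 and 0.06 on the 9-cisRA arrays. SRF was 1.78-fold lower with all arrays (-0.83 ± 0.30) and 1.34-fold lower without control replicate 4 (-0.42 ± 0.15, unadjusted p = 0.014). CYR61 (NM_001554), a secreted matrix protein, differed by -0.50 ± 0.45 and then -0.88 ± 0.41. MYC (NM_002467) was the member on the other side in both fits, at 0.18 ± 0.17 and 0.17 ± 0.18, and IER3 (NM_003897) went from -0.09 ± 0.33 to 0.27 ± 0.26. GADD45A (NM_001924), a growth arrest and DNA damage gene of the cell cycle brakes list, had 1.01, 0.36, 1.29 and 0.00 on the controls and -0.04, -0.23, -0.12 and -0.13 on the 9-cisRA arrays, a difference of -0.80 ± 0.42 and then -1.02 ± 0.43.

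The controls varied widely among themselves for this list. The median value of its members was 0.47, 0.11, 0.86 and 0.03 on control replicates 1 to 4 and between -0.24 and -0.07 on the 9-cisRA arrays. The 9-cisRA arrays were thus close together, and control replicates 1 and 3 stood highest. Values of 2 globin genes also lay lower on the 9-cisRA arrays. Of 4 tested red blood cell markers 0 had a positive difference with all arrays and 2 without control replicate 4, with 1 lower and then 0 at an unadjusted p under 0.05. Over all transcripts 55.9% and then 54.3% had a positive difference, and 1.45% and then 2.28% were lower at that threshold. HBA2 (NM_000517), an alpha globin gene, had 0.66, 0.35, 0.93 and 2.05 on the controls and -0.95, -0.21, -0.08 and -0.05 on the 9-cisRA arrays, and HBD (NM_000519), a delta globin gene, differed by -1.62 ± 0.82 and then -1.59 ± 0.91. HBA2 differed by -1.32 ± 0.55 and then -0.97 ± 0.55. The summed signal of the 5 red blood cell markers on the array, of which 4 were tested and HBB was not well above background, was 7.70 to 21.1 times the 75th percentile on the controls and 2.57 to 5.61 times on the 9-cisRA arrays. Without control replicate 4 the control range was 7.70 to 12.7. By replicate the control sums were 9.43, 7.70, 12.7 and 21.1, beside immediate early medians of 0.47, 0.11, 0.86 and 0.03. The part of these markers, and of the fibroblast markers, in the immediate early values was not tested. In the other groups of the study the mean log2 value of FOSB was 1.20 ± 1.39 (SD, n = 4) with mitotane and -0.36 ± 0.44 (SD, n = 4) with both agents.

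**Figure D4:**
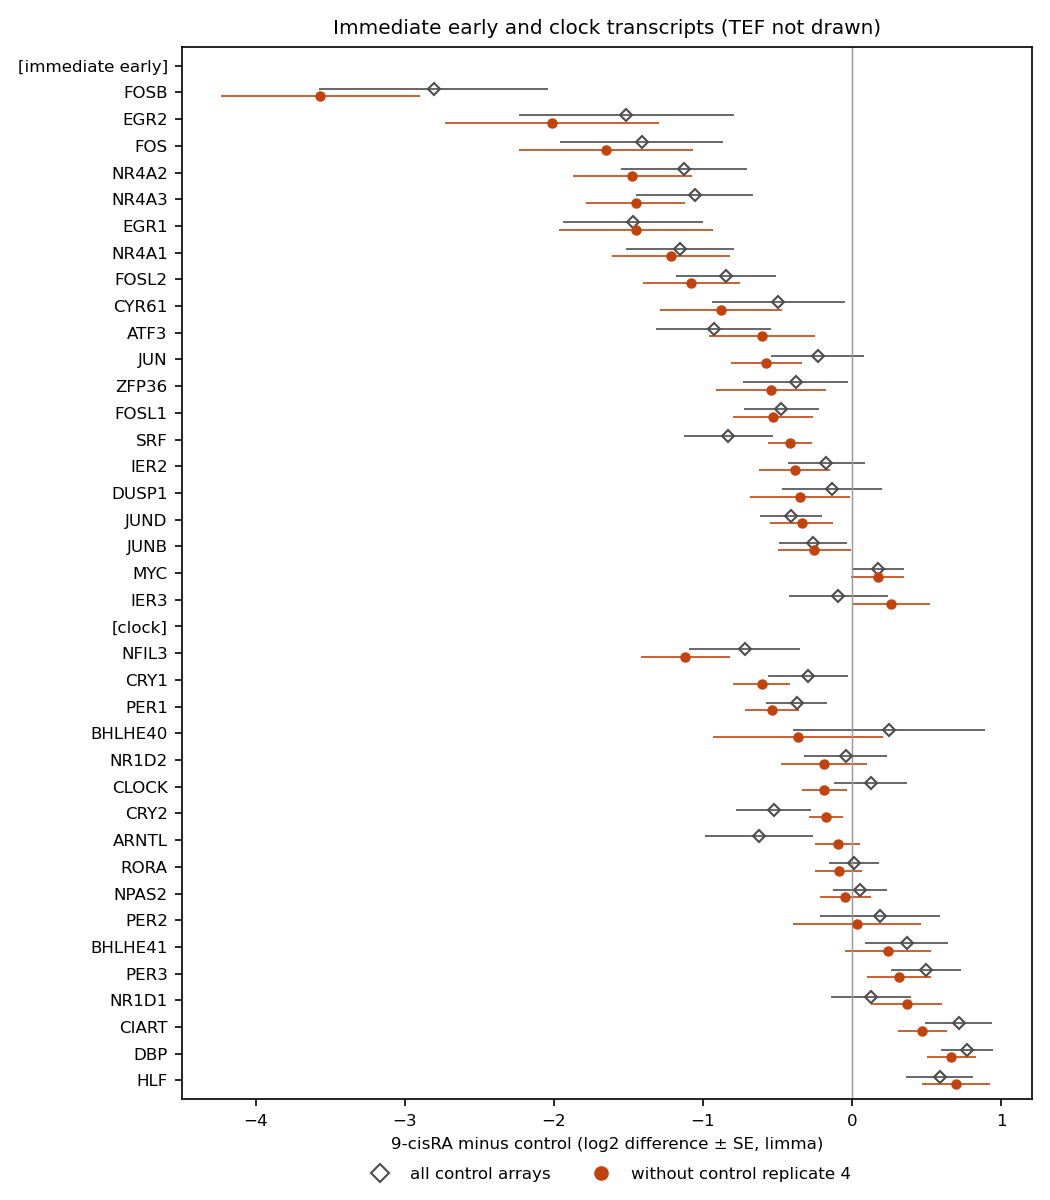
Difference between 9-cisRA and control (log2, bars are limma standard errors) for the immediate early and clock transcripts, with all control arrays (open diamonds) and without control replicate 4 (filled circles); TEF is left out because its value on control replicate 4 stretches the axis. FOSB lies at -2.81 and -3.57, MYC lies above 0 in both fits, and the clock genes spread over both sides.

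Clock genes, which keep daily rhythms and feed into adrenal steroid output, differed in both directions. Of 18 tested members 4 were higher and 0 lower at an unadjusted p under 0.05 with all arrays, and 3 were higher and 3 lower without control replicate 4. Over all transcripts 2.83% were higher and 1.45% lower, and 2.12% and 2.28% without control replicate 4. DBP (NM_001352), a rhythmic activator of the PAR bZIP family, had the smallest unadjusted p of the named transcripts with all arrays. Its values were -0.62, 0.02, -0.47 and -0.79 on the controls and 0.31, 0.35, 0.51 and 0.06 on the 9-cisRA arrays, with no overlap. DBP was 1.71-fold higher (0.77 ± 0.17, unadjusted p = 0.00046), and 1.59-fold higher without control replicate 4 (0.67 ± 0.16, unadjusted p = 0.0010). HLF (NM_002126), of the same family, differed by 0.59 ± 0.23 and then 0.70 ± 0.23, and CIART (NM_144697), a repressor of the clock, by 0.72 ± 0.22 and then 0.47 ± 0.16, each higher on 4 of 4 slides. TEF (NM_003216), the other PAR bZIP member, was not higher with all arrays. Its values were -0.52, -0.11, 0.10 and 10.6 on the controls and 0.42, -0.03, -0.06 and -0.04 on the 9-cisRA arrays, which overlap, and its difference was -2.46 ± 1.70, or 0.24 ± 0.16 without control replicate 4.

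NFIL3 (NM_005384), which competes with the PAR bZIP factors for their DNA sites, lay on the other side. It had 1.49, 0.50, 1.26 and -0.51 on the controls and 0.01, 0.29, -0.25 and -0.19 on the 9-cisRA arrays, so that control replicate 4 was the lowest of all 8 and the other 3 controls the highest. Its difference was -0.72 ± 0.37 with all arrays and -1.12 ± 0.30 without control replicate 4 (unadjusted p = 0.0021). PER1 (NM_002616), a period gene that is also induced as an immediate early gene, differed by -0.37 ± 0.21 and then -0.54 ± 0.18, and CRY1 (NM_004075), a cryptochrome, by -0.29 ± 0.27 and then -0.61 ± 0.19. PER3 (NM_016831) differed by 0.50 ± 0.23 and then 0.32 ± 0.21. Its probe was well above background on 3 of 4 controls and on 4 of 4 9-cisRA arrays. PER3 was thus tested only through the group in which it is high. The labels give no time of day at which tissue was taken.

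The tumours carried the transcripts that define adrenocortical cells. All 12 adrenocortical markers were tested, and none reached an unadjusted p of 0.05 in either fit. NR5A1 (NM_004959), the master factor of steroidogenic cells, differed by 0.25 ± 0.23, and by 0.03 ± 0.19 without control replicate 4. Of 21 steroid synthesis genes 19 were tested, with 2 higher and 0 lower at an unadjusted p under 0.05 in either fit. Shares over all transcripts were 2.83% higher and 1.45% lower with all arrays, and 2.12% and 2.28% without control replicate 4. The median of the list was 0.25 with all arrays and 0.0041 without control replicate 4, whose own median over the list was -0.91 against -0.13 to 0.30 on the other controls. STAR (NM_000349), which moves cholesterol into mitochondria, had 0.53, -0.08, -0.32 and -1.10 on the controls and -0.21, 0.34, -0.01 and -0.11 on the 9-cisRA arrays, and differed by 0.25 ± 0.28 and then -0.04 ± 0.22. CYP11A1 (NM_000781), the side-chain cleavage enzyme, differed by 0.25 ± 0.23 and then 0.0041 ± 0.17, CYP17A1 (NM_000102), the 17-hydroxylase, by 0.38 ± 0.30 and then 0.09 ± 0.26, and HSD3B2 (NM_000198) by 0.45 ± 0.40 and then 0.18 ± 0.40.

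The members of that list with lower unadjusted p were not enzymes of the main pathway. TSPO (NM_000714), an outer mitochondrial membrane protein that binds cholesterol, had -0.24, -0.38, -0.28 and -0.86 on the controls and -0.11, 0.09, 0.21 and 0.12 on the 9-cisRA arrays, without overlap. TSPO was 1.43-fold higher (0.51 ± 0.16, unadjusted p = 0.0064), and 1.30-fold higher without control replicate 4 (0.38 ± 0.13, unadjusted p = 0.013). HSD11B2 (NM_000196), which inactivates cortisol to cortisone, differed by 0.46 ± 0.17 and then 0.33 ± 0.15. Cholesterol synthesis and cholesterol uptake genes had medians of 0.10 and 0.08 with all arrays and of -0.02 and -0.05 without control replicate 4, with 0 and 1 of 18 and 15 tested members at an unadjusted p under 0.05 in the latter fit. Over all transcripts 4.41% were at that threshold in that fit.

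Growth genes were examined because the study tested an antitumoral action. Of 27 mitosis genes, all tested, 24 had a positive difference in each fit, against 55.9% and 54.3% of all transcripts, with a median of 0.29 and then 0.14. At an unadjusted p under 0.05 there were 3 higher and then 4 higher, and none lower (2.83% and then 2.12% of all transcripts were higher). AURKB (NM_004217), a mitotic kinase, had -0.00, -0.10, -0.08 and -1.06 on the controls and 0.26, 0.18, 0.21 and 0.14 on the 9-cisRA arrays. Its difference was 0.51 ± 0.20, or 0.26 ± 0.12 without control replicate 4 (unadjusted p = 0.042), and NDC80 (NM_006101), a kinetochore protein, differed by 0.32 ± 0.13 and then 0.26 ± 0.11. None of 26 DNA replication genes reached an unadjusted p of 0.05, and their median was 0.22 and then 0.01. Among 29 apoptosis regulators 1 and 0 were higher and lower with all arrays, and 1 and 1 without control replicate 4.

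In the IGF axis, which is overactive in many adrenocortical carcinomas, 12 of 15 genes were tested. At an unadjusted p under 0.05, 2 were higher and 1 lower in either fit. Shares over all transcripts were 2.83% higher and 1.45% lower with all arrays, and 2.12% and 2.28% without control replicate 4. IGFBP6 (NM_002178), a binding protein that favours IGF2, had -0.26, -0.24, -0.09 and -1.0 on the controls and 0.92, 0.92, 0.39 and 0.30 on the 9-cisRA arrays. All 9-cisRA arrays exceeded all controls, by 2.04-fold (1.03 ± 0.31, unadjusted p = 0.0046), or 1.78-fold without control replicate 4 (0.83 ± 0.31). H19 (NR_002196), the imprinted RNA next to IGF2, differed by 0.44 ± 0.20 and then 0.48 ± 0.21. IRS1 (NM_005544), the docking protein of the IGF1 and insulin receptors, had 0.49, 0.67, 0.83 and 0.05 on the controls and -0.11, -0.57, 0.04 and 0.46 on the 9-cisRA arrays, and differed by -0.55 ± 0.24 and then -0.71 ± 0.24. Of 12 tested beta-catenin targets 7 had a positive and 5 a negative difference in each fit, with a median of 0.17 and then 0.05. Over all transcripts 55.9% and 54.3% had a positive difference. At an unadjusted p under 0.05, 2 and then 1 of the targets were higher and 0 lower. Among them SP5 (NM_001003845), a transcription factor induced by Wnt signals, differed by 0.72 ± 0.21 and then 0.48 ± 0.14 (unadjusted p = 0.0048), higher on all 4 slides.

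HLA class I presentation genes had the highest median of the pathway lists in both fits. All 14 tested members had a positive difference with all arrays and 13 of 14 without control replicate 4, with medians of 0.33 and 0.20. Over all transcripts 55.9% and 54.3% had a positive difference. At an unadjusted p under 0.05 there were 6 higher, and 3 higher without control replicate 4 (2.83% and 2.12% of all transcripts). The median value of the list was -0.72 on control replicate 4 and -0.18 to -0.04 on the other controls. NLRC5 (NM_032206), the transactivator of HLA class I genes, had -0.29, -0.35, -0.06 and -0.16 on the controls and 0.39, -0.16, 1.39 and 0.07 on the 9-cisRA arrays, which overlap, with a difference of 0.63 ± 0.27 and then 0.65 ± 0.29, but 0.01 by the brightest probe of the identifier. TAP1 (NM_000593), a peptide transporter, differed by 0.52 ± 0.19 and then 0.29 ± 0.12, and HLA-F (NM_018950) by 0.49 ± 0.20 and then 0.26 ± 0.14. HLA genes resemble each other closely, so their probes may share signal. The 26 tested interferon response genes had 0 members at an unadjusted p under 0.05 in either fit. Among 19 NRF2 and glutathione genes TXN (NM_003329), thioredoxin, was the member at an unadjusted p under 0.05, with 0.47 ± 0.19 and then 0.23 ± 0.10.

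**Figure D5:**
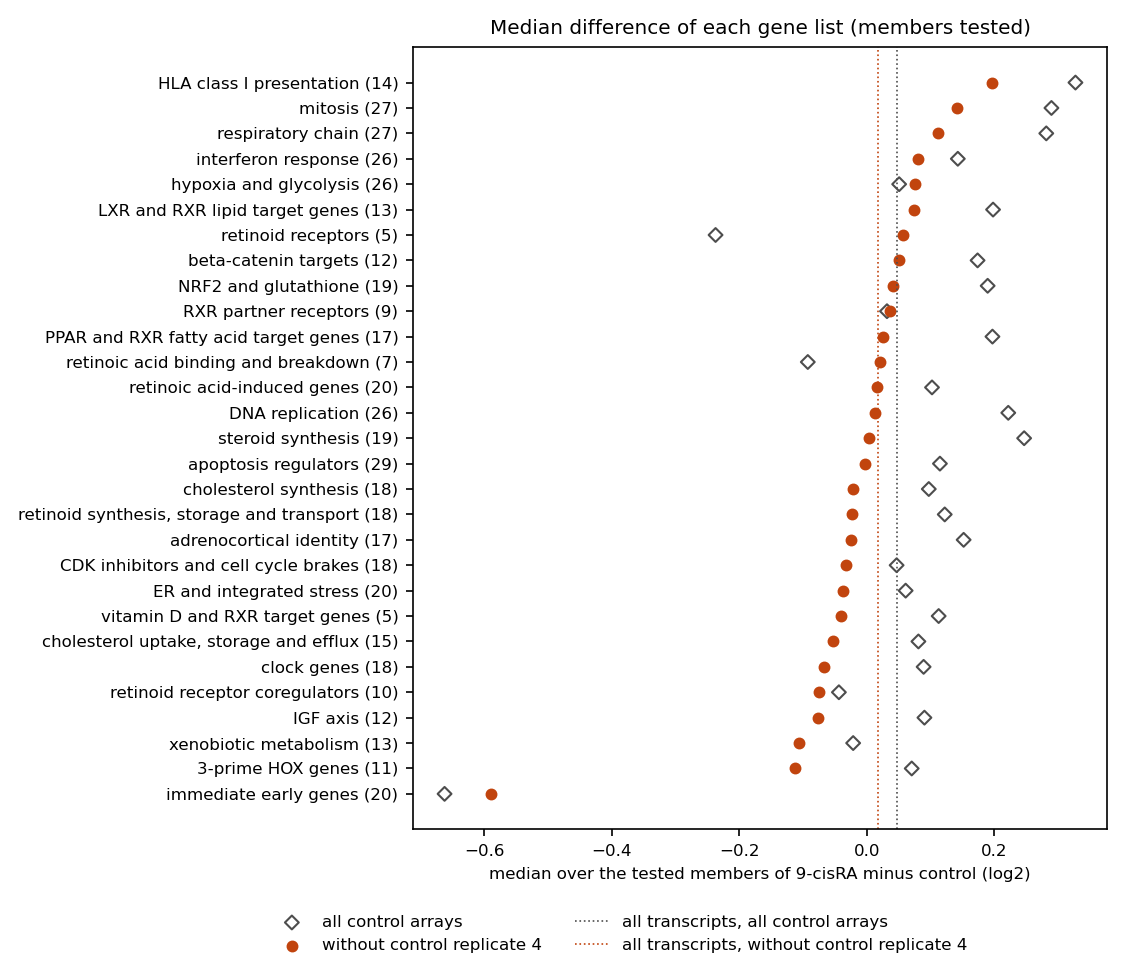
Median difference between 9-cisRA and control (log2) over the tested members of each of 29 pathway lists, with all control arrays (open diamonds) and without control replicate 4 (filled circles); dotted lines are the medians over all transcripts, 0.05 and 0.02. Immediate early genes lie lowest at -0.66 and -0.59, and most other lists move toward 0 without control replicate 4.

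The remaining transcripts are those that the naming rule took for their rank, among the transcripts that had a symbol. With higher values in both fits, besides DBP, were WDR72 (NM_182758), PXDC1 (NM_183373), FAM129A (NM_052966) and KDM4D (NM_018039). WDR72, known for its part in enamel formation, had -0.68, -0.25, -1.19 and -0.82 on the controls and 0.51, -0.13, 0.26 and 0.37 on the 9-cisRA arrays, a difference of 0.99 ± 0.23 and then 0.96 ± 0.25. PXDC1, a gene of little-known function, differed by 1.21 ± 0.29 and then 1.11 ± 0.31. The probes were well above background on 1 of 4 controls for WDR72 and on 2 of 4 for PXDC1, and on all 9-cisRA arrays. Both transcripts were thus tested only through the group in which they are high, and after normexp correction and quantile normalisation their differences were 0.14 and 0.25. FAM129A, a stress-responsive gene also called Niban, had 0.00, -0.12, -0.11 and -1.24 on the controls and 0.52, 0.29, 1.03 and 0.61 on the 9-cisRA arrays, and differed by 0.98 ± 0.26 and then 0.69 ± 0.19. KDM4D, a histone demethylase, differed by 1.31 ± 0.36 and then 0.85 ± 0.24. Both probes were well above background on 3 of 4 controls and on 4 of 4 9-cisRA arrays, and the normexp values were 0.39 and 0.56.

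With all arrays the rule also took ADH1C, described above, and matrix and small stress protein genes. PCOLCE (NM_002593), which enhances the processing of procollagen, had -0.20, -0.08, -0.02 and -0.47 on the controls and 0.74, 1.32, 0.60 and 0.58 on the 9-cisRA arrays, and was 2.00-fold higher (1.00 ± 0.28, unadjusted p = 0.0031), and 1.88-fold higher without control replicate 4 (0.91 ± 0.30, unadjusted p = 0.0091). Its highest value was on 9-cisRA replicate 2, as for the collagen genes above, and a link with them was not tested. EMILIN2 (NM_032048), an elastin-associated matrix protein, was not well above background on any control array and was at least 1.37-fold higher on the 9-cisRA arrays (adjusted p = 0.719, limma). This bound sets the 9-cisRA mean against the lowest signal that counted as measured on the controls, and it holds for the scaled scanner signals alone. The measured difference was 0.99 ± 0.27, or 1.00 ± 0.29 without control replicate 4, and 0.17 after normexp correction and quantile normalisation. HSPB3 (NM_006308), a small heat shock protein, had 1.14, -0.00, -0.81 and -0.92 on the controls and a narrow 1.46, 1.58, 1.55 and 1.45 on the 9-cisRA arrays, a difference of 1.66 ± 0.48 and then 1.40 ± 0.49. Its probe was well above background on 2 of 4 controls, so HSPB3, like EMILIN2, was tested only through the 9-cisRA arrays, and after normexp correction and quantile normalisation the difference was 0.44. RUNX1T1 (NM_004349), a transcriptional corepressor, differed by 0.57 ± 0.16 and then 0.42 ± 0.13.

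Among lower transcripts, SAMD10 (NM_080621) and FOSB were taken in both fits. SAMD10, of little-known function, had 0.83, -0.03, 0.40 and 1.10 on the controls and -0.48, -0.70, -0.43 and -0.19 on the 9-cisRA arrays, 2.04-fold lower (-1.03 ± 0.24, unadjusted p = 0.00055), or 1.80-fold lower without control replicate 4 (-0.85 ± 0.22). With all arrays the others were ZNF644 (NM_201269) at -0.47 ± 0.13 (-0.43 ± 0.12 without control replicate 4), ESYT3 (NM_031913) at -0.87 ± 0.25 (-0.71 ± 0.25 without it), PGAP1 (NM_024989) at -0.50 ± 0.14, LMOD1 (NM_012134) at -0.92 ± 0.27, ARHGEF7 (NM_145735) at -0.57 ± 0.17 and TXLNG (NM_018360) at -0.64 ± 0.20, besides RARB, FOSB and ATF3. For PGAP1, LMOD1, ARHGEF7 and TXLNG control replicate 4 was the highest control by far, and without it the 4 differences were between -0.63 and -0.40. LMOD1 encodes a smooth muscle actin nucleator, PGAP1 an enzyme of GPI anchors and ZNF644 a zinc finger protein.

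The ranking without control replicate 4 took other transcripts. CD37 (NM_001774), a leukocyte tetraspanin, had -1.64, -1.26 and -1.29 on control replicates 1 to 3, 4.00 on replicate 4 and 0.43, 0.93, -0.13 and -0.14 on the 9-cisRA arrays, a difference of 0.32 ± 0.92 with all arrays and 1.67 ± 0.38 without replicate 4 (unadjusted p = 0.00065). Its probe was well above background on 2 of 4 controls and on 4 of 4 9-cisRA arrays, so it was tested through the 9-cisRA arrays. Over all transcripts 55.9% and then 54.3% had a positive difference, and 2.83% and then 2.12% were higher at an unadjusted p under 0.05. Of 5 tested macrophage or leukocyte markers 2 had a positive difference with all arrays and 3 without control replicate 4, with medians of -0.34 and 0.13, and 0 and then 1 were higher at an unadjusted p under 0.05. The summed signal over the 8 on the array was 1.55 to 1.84 times the 75th percentile on control replicates 1 to 3, 7.43 times on replicate 4 and 2.01 to 4.29 times on the 9-cisRA arrays, while the defining markers CD68, CD163 and C1QA were not well above background. C1QB (NM_000491), a complement subunit of macrophages that made up 42.5% to 83.9% of the sum, differed by 0.52 ± 0.61 and then 1.20 ± 0.47. The part of these markers in the CD37 values was not tested. GH2 differed by 0.84 ± 0.54 and then 1.49 ± 0.39, ANXA2 (NM_001002857), a membrane-binding annexin, by 0.34 ± 0.44 and then 0.94 ± 0.25, and UCHL1 (NM_004181), a neuroendocrine deubiquitinase, by 0.76 ± 0.23 and then 0.46 ± 0.12.

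On the lower side the same fit took OXTR, KCNQ1OT1, AMIGO2, C12orf5, WWC2 and AGPAT9 besides BCO2, NR4A3 and genes named above. OXTR (NM_000916), the oxytocin receptor, had 0.29, 0.33, 0.74 and -0.11 on the controls and -0.04, -0.08, -0.58 and -0.25 on the 9-cisRA arrays, a difference of -0.55 ± 0.18 and then -0.69 ± 0.15 (unadjusted p = 0.00045). KCNQ1OT1 (NR_002728), the imprinted antisense RNA of the KCNQ1 locus, differed by -0.51 ± 0.20 and then -0.69 ± 0.16; whether the probe is strand-specific was not tested. AMIGO2 (NM_181847), an adhesion protein, differed by -0.29 ± 0.19 and then -0.50 ± 0.12. C12orf5 (NM_020375), also called TIGAR, differed by -0.10 ± 0.30 and then -0.53 ± 0.13, WWC2 (NM_024949) by -0.22 ± 0.35 and then -0.71 ± 0.18, and AGPAT9 (NM_032717), a glycerol-3-phosphate acyltransferase, by -0.24 ± 0.26 and then -0.57 ± 0.15. For the latter 3 control replicate 4 was at -1.27, -1.35 and -0.85, under every 9-cisRA array, while the other controls were above every 9-cisRA array.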

How the data were processed

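Tumour RNA was read on 1-colour human Agilent arrays. The authors deposited scanner files of Agilent Feature Extraction with an intensity for each spot (version 11.0.1 per the submitters' processing notes, 11.0.1.1 per the file headers). The authors also deposited a table of log2 values for all arrays, and no source used here says how it was made. Compared with the 15 scanner files, its columns were close to log2 of the signal scaled to a 75th percentile and centred per probe over 16 arrays (r = 1.00 over 18296 probes, largest median absolute difference 0.075). The set of spots behind that percentile is unknown. Column medians over tested transcripts were -0.35 for control replicate 4 and -0.03 to 0.03 on the other arrays.

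Of 34183 probes 34127 matched the scanner files, and probes were averaged per identifier (29094, of which 4369 had several). A transcript was tested if all arrays of at least 1 of the 2 groups had a probe well above background, which left 19673. Of these 16963 were so on every array of both groups. For an identifier with several probes, an array counts as well above background if any probe of the identifier was, while the value is their average. The 16 columns were fitted together in R 4.3.3 with limma 3.58.1, using lmFit with a term per group and eBayes. P-values are two-sided and Benjamini-Hochberg adjusted over all tested transcripts, with a threshold of 0.05. The fit was tested on simulated data. That simulation used the same normal spread for all transcripts of an array and no correlation between transcripts, unlike the data. It is thus no check of the p-values given here.

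Slides hold 1 array of each group. Deviations from the group means of same-slide arrays correlated at -0.08, 0.0031, -0.12 and -0.28 on slides 1 to 4.

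The members and gene lists were chosen with earlier results of these data known. The 29 pathway and 8 marker lists held 612 symbols, of which 589 had an identifier on the array. Symbols came from a table of 784 accessions written by hand, of which 70 were added after ranks were seen, and the naming rule could take a named transcript only. The rule took, per direction, the 10 named transcripts with the smallest unadjusted p in each fit when fewer passed the adjusted test, and list members by their role or p. Some genes the rule took are not reported here. A list's gene is its brightest transcript. Alternatives covered left-out arrays, the samples in the fit, the slide as a block, scanner values, normexp (offset 50) with quantile normalisation, scaling, the filter, the probe and array weights. Scanner files lacked a mean signal column, so normexp used the median signal.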

Additional observations from a re-analysis of the deposited data

Results flagged for a closer look

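In groups of 4 arrays, 1 array was set apart when its gap to the nearest other array took more of the group's range than Dixon's 95% critical value allows. For values not picked beforehand, chance does this in about 1 of 20 groups. Most groups examined held values of named transcripts, some ranked without control replicate 4, so that rate does not apply to the counts. Of 212 groups of values examined 24 met it, 19 of them through control replicate 4. As an array, control replicate 4 had 511 outlier spots (281 to 313 on the other controls), a median correlation of 0.871 with the other arrays and a column median of -0.35. It lay below the other controls for RARG (-0.73), PPARA (-0.83), AURKB (-1.06), PDGFRB (-0.96), FAM129A (-1.24), C12orf5 (-1.27), WWC2 (-1.35) and AGPAT9 (-0.85). It lay above them for ADH1C (-0.54), SRF (1.95), PGAP1 (0.60), LMOD1 (1.29), ARHGEF7 (0.47), TXLNG (1.04), CD37 (4.00) and TEF (10.6).

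Control replicate 2 was apart for EMILIN2, at -0.93 against -0.76 to -0.73, where no control was well above background. Among the 9-cisRA arrays replicate 2 was apart for HIC1 (0.94 against 0.09 to 0.19), FOSB (-1.33 against -0.34 to -0.17) and EGR2 (-2.25 against -0.20 to 0.07), and replicate 1 for TEF (0.42 against -0.06 to -0.03). Replicate 2 also had the highest fibroblast marker sum, and no test of a link was made.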

How the results depend on the processing

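The count at an adjusted p under 0.05 was 0 under every alternative run except array weights, which gave 3, and the smallest adjusted p over the alternatives ran from 0.020 to 0.971. The count at an unadjusted p under 0.05 (843) ranged from 587 to 2316 when 1 array was left out. The highest counts came without control replicate 1 (2316) and without control replicate 2 (1448). The count was 286 with the control and 9-cisRA arrays alone in the fit (1072 when control replicate 4 was also left out, chosen after seeing the data) and 2366 with array weights. With the slide as a replicate block it was 894, and 1087 with the block and without control replicate 4. The block changed no call, as 0 passed with it. Its split was 643 higher and 195 lower with normexp and quantile normalisation, 456 and 442 with no filter, and 320 and 336 without 9-cisRA replicate 1.

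Of 100 single transcripts followed, 83 kept their sign under all 22 alternatives run on them. So did 28 of the 32 named here that the naming rule took. Many were picked for a small unadjusted p in these data, which favours a kept sign, so the counts do not measure stability. The rate over all transcripts was not computed. Signs turned for the rest of the 100. Leaving out 1 array at a time gave ranges of -0.68 to 0.24 for RXRB, -0.53 to 0.02 for CRABP1, -0.03 to 0.36 for CYP26B1, -0.33 to 0.27 for IER3, -0.04 to 0.50 for STAR, -0.57 to 0.045 for JUN, -0.21 to 1.67 for CD37, -0.53 to 0.073 for C12orf5, -0.71 to 0.0086 for WWC2, -3.47 to 0.24 for TEF, -0.40 to 0.13 for PDGFRB and -0.18 to 0.48 for ACTA2. A fit of the control and 9-cisRA arrays alone and the scanner values, each without control replicate 4, gave RXRB 0.24 and 0.24, CRABP1 0.021 and 0.018, CYP26B1 -0.028 and -0.030, IER3 0.27 and 0.26, and STAR -0.040 and -0.042. Both rest on the same signals as the value table without control replicate 4, so their match is no independent check. With the block and without that array RXRB was 0.21, CRABP1 0.013, CYP26B1 -0.041 and IER3 0.27. Without slide 4 RXRB was 0.21, CRABP1 0.21, IER3 0.37 and STAR -0.0033. Quantile normalisation of the value table turned RXRB to 0.094 and IER3 to 0.13, normexp turned CD37 to -0.23, and the brightest probe turned ANXA2 to -0.026. Array weights turned RXRA to -0.031, RXRB to 0.041, CYP26B1 to -0.21, TGM2 to -0.0046, IER3 to 0.31, STAR to -0.0027, CYP11A1 to -0.031 and NR5A1 to -0.16. TEF was 0.28 without slide 4 and with the block without control replicate 4, 0.24 in the scanner values without that array and 0.14 with array weights. The cause was not tested.

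The number of arrays, 4 a group, limits the precision, and signal near background limits RARB, WDR72 and HSPB3. The immediate early median stayed below 0 under every alternative run.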

Other observations

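The respiratory chain genes, which encode subunits of the mitochondrial electron transport complexes, had 22 of 27 tested members with a positive difference and a median of 0.28 with all arrays, and 25 of 27 and a median of 0.11 without control replicate 4 (55.9% and 54.3% of all transcripts had a positive difference). None reached an unadjusted p of 0.05 in either limma fit, and control replicate 4 had a median of -0.71 over the list against -0.04 to 0.12 on the other controls. Over all transcripts 2.83% were higher and 1.45% lower at an unadjusted p under 0.05 with all arrays, and 2.12% and 2.28% without control replicate 4. Adrenocortical identity genes (17 tested) had a median of 0.15 and then -0.03, with 1 member higher at an unadjusted p under 0.05 with all arrays and 0 without control replicate 4. Cell cycle brakes (18 tested) had medians of 0.05 and -0.03, with 2 higher members with all arrays, CDKN2C and CDKN2D, and 1 lower, GADD45A, without control replicate 4. Hypoxia and glycolysis genes (26 tested) had medians of 0.05 and 0.07, with 1 and then 2 lower members. Endoplasmic reticulum and integrated stress genes (20 tested) had medians of 0.06 and -0.04 with 1 lower member, ATF3 by its brighter transcript, NM_001674, and then 0 (the dimmer ATF3 transcript had an unadjusted p of 0.0031 and then 0.011), and xenobiotic metabolism genes (13 tested) had medians of -0.02 and -0.11 with 0 members in either fit.

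Among the other marker lists, the summed signal in multiples of the 75th percentile was 60.2 to 140.1 on the controls and 99.1 to 127.5 on the 9-cisRA arrays for adrenocortical cells, with the lowest value on control replicate 4. It was 1.96 to 3.26 and 2.12 to 2.82 for adrenal medulla or neuron, 0.304 to 0.815 and 0.322 to 0.432 for endothelial cells, 0.494 to 0.651 and 0.581 to 0.740 for adipocytes, and 2.10 to 4.39 and 2.16 to 2.68 for skeletal muscle. The groups overlapped for each of these 5 lists.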
